A study of Homo sapiens with 22 samples.

Results

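The 45 human genes described here encode the machinery of DNA replication and its entry switch: origin licensing, the replicative helicase, the fork polymerases and clamp, deoxynucleotide synthesis, chromatin copying and the G1/S regulators. They were listed by symbol, and all 45 were found once each among the 58735 genes of the human table and all passed the filter on low values. The tissue was xenograft tumour grown from H3122, a human lung cancer line (labelled non-small-cell and ALK-positive, that is, carrying the activated receptor kinase ALK). The tumours grew in 2 hosts: NSG mice, which lack functional lymphocytes, and hHGF-NSG mice, a variant humanized for hepatocyte growth factor (HGF). Each host held therapy-naive tumours and tumours treated with alectinib, an ALK inhibitor, for 2 weeks or for 6 weeks. Whole-tumour RNA was sequenced in 22 samples, with 4 per group except for 3 therapy-naive and 3 6-week samples in hHGF-NSG. Neither dose nor mouse age is stated in the labels, and nothing there says that each sample is a separate animal, so every p-value measures the spread between samples that may in part be technical.

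A cell copies its genome once per cycle. In G1, the origin recognition complex (ORC), CDC6 and CDT1 load a ring of the MCM2 to MCM7 proteins onto origins, a step called licensing. At the start of S phase, MCM10, CDC45 and the GINS complex turn that ring into a running helicase, and the primase, the polymerases and the sliding clamp PCNA copy the strands. Transcription factors of the E2F family switch on many of these genes when cyclin-dependent kinases inactivate the retinoblastoma protein, and cells that leave the cycle shut them off again. In ALK-driven lung cancer cells, ALK signalling feeds the kinase cascades that lead to this switch.

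Promoter sequences show what many of these genes share in their DNA. RefSeq promoters (GRCh38.p14, 250 bases before each transcription start) could be matched by symbol for 39 of the 45 genes, with 50 starts in all. For 32 of the 39, the first 20 transcribed bases of a start lie in a GENCODE transcript of the same symbol. The promoters were searched on both strands for E2F letters in 4 spellings (TTTCCCGC, TTTCGCGC, TTTGCCGC or TTTGGCGC), for the CCAAT box and for the CHR motif TTTGAA that marks many late cell cycle genes; spellings of the E2F motif may overlap each other. MCM6 and E2F1 are printed because they hold E2F letters beside CCAAT boxes and fell after treatment. CHAF1B is printed because it holds none of the 3 motifs and did not fall. Other genes with none of the 3 motifs did fall, among them MCM2, FEN1 and CCNE1, which are not printed. Each line gives the 140 bases before the start, 5′ to 3′ on the gene's own strand, with E2F letters and CCAAT (or ATTGG, the same box on the other strand) in capitals.
MCM6, chr2:135876444-135876583, minus strand: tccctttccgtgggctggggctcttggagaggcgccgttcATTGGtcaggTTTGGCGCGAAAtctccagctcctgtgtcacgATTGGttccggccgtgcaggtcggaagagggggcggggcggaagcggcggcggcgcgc
E2F1, chr20:33686386-33686525, minus strand: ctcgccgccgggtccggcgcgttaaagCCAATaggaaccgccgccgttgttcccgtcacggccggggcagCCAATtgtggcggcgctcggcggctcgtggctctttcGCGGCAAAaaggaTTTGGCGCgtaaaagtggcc
CHAF1B, chr21:36385252-36385391, plus strand: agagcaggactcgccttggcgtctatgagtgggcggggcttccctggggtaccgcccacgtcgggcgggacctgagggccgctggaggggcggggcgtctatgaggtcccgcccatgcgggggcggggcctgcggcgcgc
In the MCM6 line an E2F spelling and the reverse of another share 4 of their letters, and a CCAAT box lies on each side. E2F letters stood both in genes that fell and in genes that did not, as short stretches around the match nearest the start show. Other E2F-like spellings and the bases after the start were not searched. E2F2 and RFC3 fell, LIG1 changed little and CDT1 rose at 2 weeks.
E2F2, chr1:23531258-23531285, minus strand: cggcacgacgTTTGGCGCtaaaaaaaaa
RFC3, chr13:33818084-33818111, plus strand: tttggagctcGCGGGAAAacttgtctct
LIG1, chr19:48170441-48170468, minus strand: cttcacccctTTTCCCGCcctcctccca
CDT1, chr16:88803744-88803771, plus strand: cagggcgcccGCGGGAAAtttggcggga
Of the 39 genes, 16 (41.0%) held E2F letters at any of their starts, against 3.41% of all 27195 genes with a promoter (34961 starts) and 4.57% of the 14866 protein-coding ones. CCAAT was in 22 (56.4%), against 37.0% of all these genes, and the CHR letters were in 1 (2.56%), against 16.1%. Among the 15 matched genes of a list of 20 mitosis genes, 1 held E2F letters, 12 held CCAAT and 9 held the CHR letters. A match describes letters only, and occupancy by a factor was not measured in these samples.

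Libraries held 10688632 to 19065656 human reads and 895826 to 5766509 mouse reads, the latter in 20 of the 22 samples. Values are FPKM, which are reads scaled by gene length and by a divisor for each library. That divisor was not the total of recovered human reads: it was 0.876 to 0.937 times that total in naive libraries and 0.986 to 1.11 times in treated ones. All human comparisons were therefore repeated with values rescaled to the total reads of each library, an alternative chosen after seeing the data. Precision is lower for genes with few reads, such as MCM10, with 4 to 31 reads in each treated sample. Human HGF, the label check for the host, had 13 to 79 reads in the hHGF-NSG samples and 0 to 6 in 11 of the NSG samples, but 43 reads in the library labelled NSG naive replicate 1, which goes against its label. Counts of the 45 genes called against NSG naive tumours are given with and without it. Tumour epithelial markers were present at 1 FPKM or more in every group (8 of 8), and their summed level was lower in treated than in naive tumours, at 2573 to 4013 FPKM in NSG naive samples against 1326 to 1707 in treated ones, and 2645 to 3949 against 1244 to 1744 in hHGF-NSG. In the human table the 4 leukocyte markers summed to at most 0.512 FPKM in any sample and the fat cell marker ADIPOQ was listed at 0 throughout. The 6 fibroblast markers summed to 26.8 to 42.1 FPKM in NSG naive and 5.15 to 14.3 in treated samples (41.9 to 112 and 6.37 to 16.4 in hHGF-NSG), with DCN, PDGFRB or both listed at 0 in each treated group. The 4 endothelial markers ranged in sum from 4.57 to 8.14 FPKM when naive, 7.17 to 11.3 after 2 weeks and 7.71 to 19.9 after 6 weeks in NSG (4.89 to 7.63, 5.91 to 7.27 and 7.94 to 11.3 in hHGF-NSG). The part of these marker shifts in the results was not tested.

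Nearly all of the 45 listed genes were lower in treated tumours, in both hosts and at both times. After 2 weeks in NSG mice, 42 of the 45 genes were called, 40 lower and 2 higher than in naive tumours (limma, adjusted p under 0.05). Of all 16029 genes tested 56.1% were called, 28% lower and 28.1% higher. After 6 weeks 42 were lower and 0 higher, against 57.6% of all genes called, 28.8% lower and 28.8% higher. In hHGF-NSG mice 41 were lower and 2 higher at 2 weeks (54.1% of all genes called, 26.6% lower and 27.5% higher), and 42 lower and 1 higher at 6 weeks (51.3% called, 25.5% lower and 25.9% higher). In all 4 comparisons 40 of the 45 genes were lower, as were 19.1% of all genes tested. The 5 exceptions were CDT1 and CHAF1B, which rose at 2 weeks, RPA2, which passed the test nowhere, and LIG1 and RFC4, which fell in some comparisons only.

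Scaling by total reads kept most of these calls. It gave 2 higher and 39 lower genes at 2 weeks and 1 and 39 at 6 weeks in NSG, and 2 and 39, then 2 and 41, in hHGF-NSG, with 39 lower in all 4 comparisons. The median over all genes moved up by 0.21, 0.18, 0.19 and 0.14 in the same order, and the share of called genes that were higher went from 50.1%, 49.9%, 50.9% and 50.4% to 69.2%, 66.2%, 68.3% and 63.5%. Under this scaling 17.8%, 19.8%, 17.8% and 19.1% of all genes were called lower. The median change of the 45 genes was -0.996 and -1.22 in NSG and -1.06 and -1.21 in hHGF-NSG. The calls it changed were those of RFC4, LIG1, RPA3 and CHAF1B, which are given beside each gene.

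The drop was large as well as common. Genes lower by at least 2-fold on the log2(FPKM + 1) scale, which understates changes of low genes, numbered 28 and 34 at 2 and 6 weeks in NSG and 30 and 32 in hHGF-NSG, against 6.75%, 7.78%, 7.33% and 7.5% of all genes. The median change of the 45 genes was -1.19 and -1.43 in NSG and -1.29 and -1.37 in hHGF-NSG, beside medians over all genes of 0.03, 0.03, 0.03 and 0.02. Naive and treated samples did not overlap, with treated lower, for 38 and 40 genes in NSG and 41 and 42 in hHGF-NSG, where 24.4%, 24.3%, 27.7% and 28.1% of all genes were so separated. Without the NSG naive library whose HGF reads go against its label, 39 genes were lower and 2 higher at 2 weeks and 42 lower at 6 weeks, with medians of -1.17 and -1.45. In bulk tumour RNA, fewer cycling cells and less of these RNAs per cell cannot be told apart. The share of mouse reads rose alongside, from 5.50 to 12.0% in NSG naive libraries to 12.1 to 20.2% at 2 weeks and 16.9 to 21.9% at 6 weeks (6.81 to 13.5%, 8.71 to 17.4% and 24.3 to 28.95% in hHGF-NSG). FPKM in the human table is relative to human reads only, and the part of this shift in the results was not tested.

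**Figure D1:**
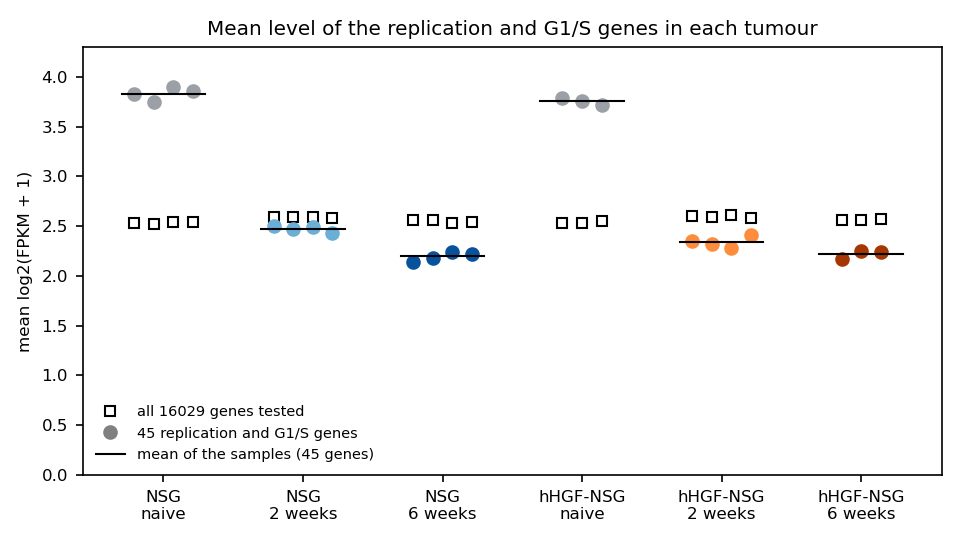
Mean log2(FPKM + 1) over the 45 genes (filled points) and over all 16029 genes tested (open squares) in each of the 22 samples, by host and treatment; the line is the group mean of the filled points. The naive samples lie between 3.71 and 3.90 and the treated ones between 2.14 and 2.51, while the level of all genes moves by less than 0.1.

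Averaged over the 45 genes, log2(FPKM + 1) was 3.83 ± 0.07 (SD, n = 4) in NSG naive tumours, 2.47 ± 0.03 (n = 4) at 2 weeks and 2.20 ± 0.04 (n = 4) at 6 weeks. In hHGF-NSG it was 3.75 ± 0.04 (n = 3), 2.34 ± 0.05 (n = 4) and 2.22 ± 0.05 (n = 3). In the plot of mean level by sample, every treated sample lies far below every naive one.

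**Figure D2:**
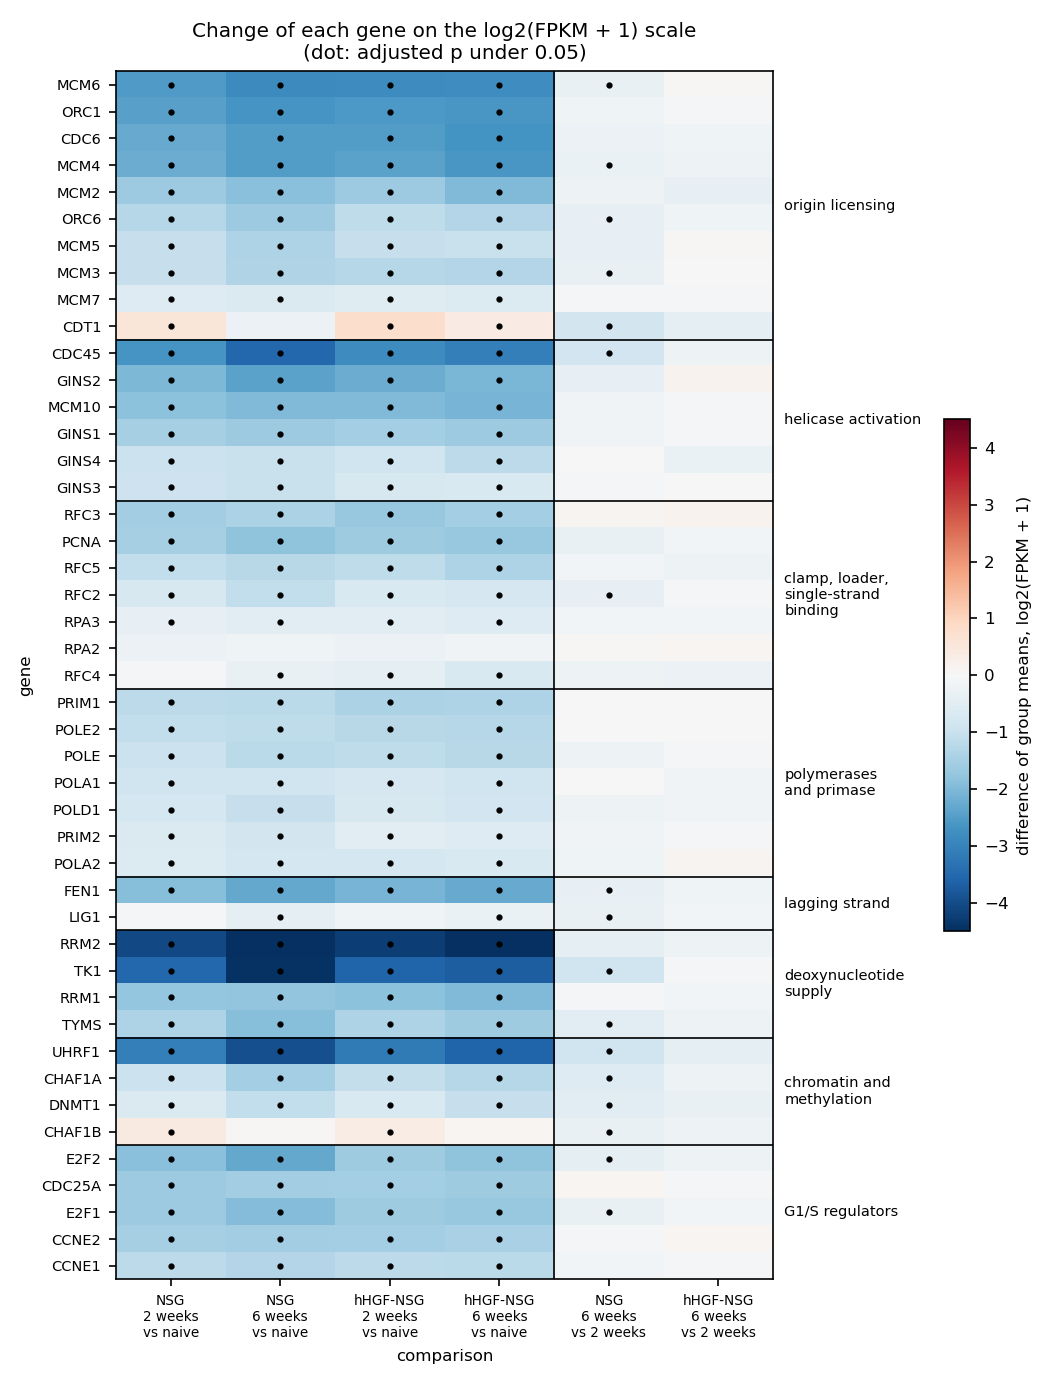
Difference of group means on the log2(FPKM + 1) scale for each of the 45 genes (rows, by role) in 4 comparisons with naive and in 6 against 2 weeks in each host (columns); blue is lower, red is higher, and a dot marks an adjusted p under 0.05. Ribonucleotide reductase subunit RRM2 has the darkest cells, at -4.07 to -4.49. In the 2-week comparisons with naive, CDT1 and CHAF1B are the red ones.

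Of the 10 origin licensing genes, 9 fell and CDT1 did not. ORC1 and ORC6, parts of the complex that marks origins, CDC6, which recruits the ring, and all 6 ring subunits were lower in all 4 comparisons. MCM6, the ring subunit with the largest drop (chr2:135839626-135876426, hg38), stood at 26.7, 24.1, 28.99 and 27.7 FPKM in the NSG naive samples, at 3.52, 3.26, 4.81 and 3.75 after 2 weeks and at 3.09, 2.44, 2.86 and 2.80 after 6 weeks. In hHGF-NSG tumours MCM6 was 28.8, 27.5 and 28.5 FPKM when naive, 3.51, 2.57, 2.66 and 3.66 at 2 weeks and 2.74, 3.61 and 3.29 at 6 weeks. Every treated sample lay far below every naive one in both hosts. The change on the log2(FPKM + 1) scale was -2.53 (SE 0.11, adjusted p = 4.91e-14) at 2 weeks in NSG and -2.85 (SE 0.11, adjusted p = 3.24e-14) in hHGF-NSG, which left 14.3% and 11.0% of the naive mean. ORC1 kept 10.4% of its naive mean at 2 weeks in NSG and 8.33% in hHGF-NSG, and CDC6 kept 10.6% and 7.45%.

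The 6 ring subunits, which assemble one to one, did not fall by the same factor. MCM7 lost the least: its mean went from 54.0 to 35.6 and 34.1 FPKM in NSG and from 50.6 to 34.2 and 32.7 in hHGF-NSG, with all 4 drops past the threshold (log2 change -0.56 to -0.64). The largest subunit mean was 3.42 times the smallest in naive tumours of either host, and 9.28 and 12.2 times at 2 and 6 weeks in NSG (11.0 and 10.7 in hHGF-NSG). MCM6 per MCM7 went from 0.499 ± 0.028 (SD, n = 4) in NSG naive to 0.107 ± 0.014 at 2 weeks (n = 4), a ratio chosen after its values were seen. The MCM7 gene model overlaps those of the microRNAs MIR25, MIR93 and MIR106B on the same strand.

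**Figure D3:**
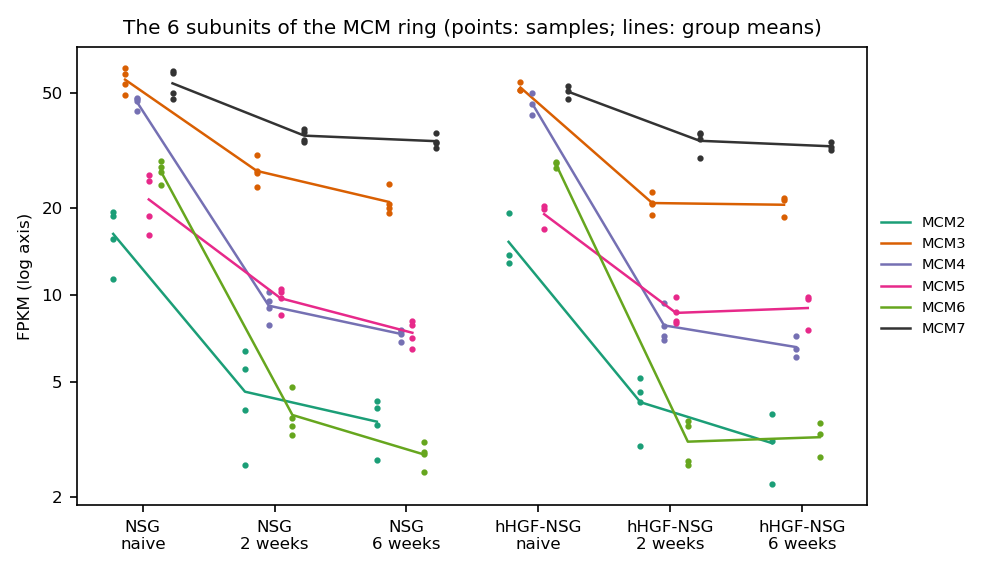
FPKM of the 6 MCM ring subunits on a log axis, by host and treatment; points are samples and lines join group means. MCM6 and MCM4 drop the most and MCM7 the least, so the span between highest and lowest subunit widens from 3.42-fold in naive tumours to 9.28-fold or more in treated ones.

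CDT1 went the other way at 2 weeks. CDT1 (chr16:88803213-88809258, hg38) loads the ring together with CDC6 and is kept in check by the inhibitor geminin and by destruction in S phase. It was at 12.8, 13.5, 19.3 and 19.0 FPKM in the NSG naive samples, at 21.4, 28.2, 22.04 and 23.4 after 2 weeks and back at 14.2, 12.1, 13.1 and 12.5 after 6 weeks. In hHGF-NSG its values were 11.4, 10.5 and 14.2 FPKM when naive, 20.7, 22.4, 18.3 and 23.7 at 2 weeks and 17.6, 16.7 and 13.5 at 6 weeks. All 2-week samples exceeded all naive ones in both hosts, whereas the 6-week samples overlapped the naive ones. The rise was 0.54 (SE 0.13, adjusted p = 0.00156) in NSG and 0.78 (SE 0.14, adjusted p = 0.000109) in hHGF-NSG. At 6 weeks it was -0.28 (adjusted p = 0.0794) in NSG, where it became a called drop without naive replicate 1, the library that goes against its label (-0.37, adjusted p = 0.0234), or without naive replicate 2 (-0.35, adjusted p = 0.0371). The 6-week value in hHGF-NSG, 0.38 (adjusted p = 0.0432), passed the threshold narrowly and lost it without naive replicate 1 or 2 or without 6-week replicate 1 or 2 (adjusted p = 0.107 to 0.163). Scaled by total reads, CDT1 at 6 weeks was -0.06 (adjusted p = 0.703) in NSG and 0.55 (adjusted p = 0.00484) in hHGF-NSG. Geminin (GMNN) fell from a mean of 12.5 to 3.13 FPKM in NSG at 2 weeks, so CDT1 per geminin rose from 1.35 ± 0.50 to 7.88 ± 2.04 (SD, n = 4 each), again a ratio chosen after its values were seen.

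All 6 helicase activation genes fell in all 4 comparisons. CDC45 (chr22:19479459-19520612, hg38), which joins the ring to form the moving helicase, was 20.1, 18.6, 24.2 and 23.4 FPKM in NSG naive samples, 2.54, 3.06, 2.29 and 2.45 at 2 weeks and 0.792, 0.787, 1.10 and 1.13 at 6 weeks. The hHGF-NSG samples had 21.0, 21.5 and 19.3 FPKM when naive, 2.31, 1.69, 1.70 and 2.37 at 2 weeks and 1.199, 1.5 and 2.08 at 6 weeks. The 3 NSG groups did not overlap at all, and in hHGF-NSG the 2- and 6-week samples did. The log2 change was -2.65 (SE 0.11, adjusted p = 8.35e-14) at 2 weeks and -3.53 at 6 weeks in NSG, and -2.85 and -3.07 in hHGF-NSG. GINS3, a subunit of the GINS complex that holds CDC45 on the ring, changed least of this group and was low throughout. In NSG it was 2.28, 2.48, 2.29 and 2.33 FPKM when naive, 0.897, 0.831, 0.785 and 0.529 at 2 weeks and 0.513, 0.590, 0.929 and 0.685 at 6 weeks. The hHGF-NSG tumours had 1.97, 2.10 and 1.42 FPKM when naive, 0.700, 0.653, 0.819 and 0.661 at 2 weeks and 0.816, 1.01 and 0.446 at 6 weeks. Treated and naive samples of GINS3 were still separate in both hosts, with a 2-week change of -0.93 (adjusted p = 8.97e-07) in NSG and -0.72 (adjusted p = 5.8e-05) in hHGF-NSG. MCM10, which helps CDC45 onto the ring, kept 8.14% of its naive mean at 2 weeks in NSG and 5.22% in hHGF-NSG.

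The polymerases and primase fell in all 7 cases. This group holds the polymerase alpha subunits POLA1 and POLA2, the primase subunits PRIM1 and PRIM2, the catalytic subunits of polymerases delta and epsilon (POLD1 and POLE) and POLE2. Its median log2 change was -0.89 and -1.02 in NSG at 2 and 6 weeks and -0.80 and -0.91 in hHGF-NSG. PRIM1, the catalytic primase subunit, was 5.31, 4.97, 4.80 and 4.67 FPKM in NSG naive samples, 2.17, 1.72, 1.58 and 1.06 at 2 weeks and 1.55, 1.46, 1.70 and 1.46 at 6 weeks. In hHGF-NSG it was 4.67, 4.33 and 4.53 FPKM when naive, 1.25, 0.825, 0.920 and 1.27 at 2 weeks and 1.43, 0.739 and 1.19 at 6 weeks. Its partner PRIM2 was 5.14, 5.69, 4.90 and 4.39 FPKM in NSG naive samples, 3.19, 2.44, 2.95 and 2.67 at 2 weeks and 2.59, 2.12, 2.34 and 2.66 at 6 weeks. In hHGF-NSG PRIM2 was 4.54, 3.99 and 3.19 FPKM when naive, 2.84, 2.65, 1.96 and 2.35 at 2 weeks and 2.33, 2.10 and 2.28 at 6 weeks. No treated sample of either subunit reached a naive one, and the drop at 2 weeks was -1.19 and -1.42 for PRIM1 and -0.66 and -0.50 for PRIM2 (largest of the 4 adjusted p = 0.000594). PRIM1, PRIM2, POLA1, POLA2 and POLD1 overlap other gene models on the same strand, so part of their reads could be split between models. The same-strand models over POLA1 (SCARNA23) and POLD1 (AC020909.1) stood at 0 FPKM in every group.

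Within the clamp, clamp loader and single-strand binding group the response ranged from a strong drop to none that passed the test. PCNA, the ring that keeps polymerases on DNA, went from a mean of 128 to 45.3 and 36.5 FPKM in NSG and from 114 to 37.3 and 34.2 in hHGF-NSG. RFC3, a subunit of the complex that opens that ring, was 16.4, 19.99, 16.7 and 15.3 FPKM in NSG naive samples, 4.51, 4.94, 5.74 and 5.19 at 2 weeks and 4.98, 5.24, 6.66 and 6.02 at 6 weeks. In hHGF-NSG RFC3 was 18.6, 18.2 and 12.8 FPKM when naive, 4.17, 5.03, 3.79 and 4.54 at 2 weeks and 5.46, 5.29 and 4.37 at 6 weeks. Treated RFC3 samples lay below all naive ones, with a 2-week change of -1.57 (adjusted p = 5.09e-10) in NSG and -1.69 (adjusted p = 5.44e-10) in hHGF-NSG.

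RFC4 sits in the same loader complex but moved little. It was 9.09, 6.30, 7.83 and 7.31 FPKM in NSG naive samples, 8.08, 7.72, 7.77 and 5.39 at 2 weeks and 4.83, 5.46, 7.71 and 5.85 at 6 weeks, groups that overlapped. The hHGF-NSG samples had 8.18, 8.46 and 8.69 FPKM when naive, 6.29, 6.02, 6.51 and 5.72 at 2 weeks and 5.10, 4.41 and 5.22 at 6 weeks, and these 3 groups were separate. The NSG change was -0.07 at 2 weeks (95% interval -0.33 to 0.18, adjusted p = 0.645) and -0.32 at 6 weeks (adjusted p = 0.0327). That 6-week call was lost without naive replicate 1 or 3 or without 6-week replicate 1, 2 or 4 (adjusted p = 0.0571 to 0.123). In hHGF-NSG the drop was -0.41 (adjusted p = 0.0137) and -0.68 (adjusted p = 0.000444), and the difference between the hosts did not pass the test at either time (-0.33, interval -0.71 to 0.04, at 2 weeks). Scaled by total reads, RFC4 was called only at 6 weeks in hHGF-NSG (-0.52, adjusted p = 0.00380): the changes were 0.17 and -0.12 in NSG (adjusted p = 0.243 and 0.416) and -0.19 at 2 weeks in hHGF-NSG (0.229).

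RPA2, a subunit of the protein that coats single-stranded DNA in replication and repair alike (named after its values were seen), passed the test in none of the 4 comparisons. It stood at 25.5, 22.7, 19.6 and 21.4 FPKM in NSG naive samples, 20.7, 16.9, 20.5 and 16.1 at 2 weeks and 17.8, 17.3, 25.2 and 18.2 at 6 weeks. In hHGF-NSG RPA2 was 24.0, 19.8 and 17.0 FPKM when naive, 17.0, 16.1, 15.1 and 18.9 at 2 weeks and 17.5, 17.4 and 18.3 at 6 weeks. The groups overlapped in both hosts, and the log2 changes ran from -0.26 to -0.17, with a widest 95% interval of -0.47 to 0.13 at 6 weeks in hHGF-NSG. Without NSG 6-week replicate 3 the 6-week change in NSG became a called drop (-0.31, adjusted p = 0.0258), and without hHGF-NSG naive replicate 3 so did the 2-week change in hHGF-NSG (-0.36, adjusted p = 0.0407). All 4 changes of RPA2 with scaling by total reads lay between -0.02 and 0.03. Its partner RPA3 fell in all 4 comparisons by 0.35 to 0.58, but it overlaps UMAD1 on the other strand over most of its length, and whether counting used strand is not given in the sources at hand. The RPA3 call at 2 weeks in NSG (adjusted p = 0.0311) was lost without naive replicate 1 or 2 or 2-week replicate 3 or 4 (0.0795 to 0.124). RPA3 scaled by total reads kept only its 6-week call in hHGF-NSG (-0.41, adjusted p = 0.0288), and the others were -0.11, -0.28 and -0.24 (adjusted p = 0.505, 0.0733 and 0.172).

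On the lagging strand, the flap nuclease and the ligase that finish each fragment parted. FEN1, the nuclease, was 39.0, 34.1, 38.2 and 37.4 FPKM in NSG naive samples, 10.4, 10.8, 8.34 and 7.11 at 2 weeks and 5.49, 6.76, 8.31 and 6.75 at 6 weeks. In hHGF-NSG FEN1 was 35.6, 31.2 and 41.7 FPKM when naive, 8.67, 6.77, 7.14 and 8.62 at 2 weeks and 6.06, 7.02 and 7.12 at 6 weeks. All treated FEN1 samples were far below the naive ones, by 1.92 (adjusted p = 6.19e-11) and 2.08 (adjusted p = 6.52e-11) on the log2 scale at 2 weeks. FEN1 shares 4265 bases with FADS2 on the same strand. The FADS2 mean went from 29.6 FPKM in NSG naive tumours to 1.06 at 2 weeks and 0.545 at 6 weeks. In hHGF-NSG it was 23.0, 0.924 and 0.535 FPKM. How reads were split between these models is not given, and the part of this overlap in the FEN1 drop was not tested. LIG1, the ligase, was 10.02, 10.2, 12.7 and 13.3 FPKM in NSG naive samples, 11.5, 11.7, 9.47 and 10.1 at 2 weeks and 9.13, 8.76, 7.83 and 7.73 at 6 weeks. In hHGF-NSG it was 11.4, 10.1 and 12.6 when naive, 9.16, 10.3, 11.2 and 8.603 at 2 weeks and 9.12, 9.06 and 8.83 at 6 weeks. The 2-week samples of LIG1 overlapped the naive ones in both hosts, and the 6-week samples lay just below them. The change was -0.10 (adjusted p = 0.441) and -0.19 (adjusted p = 0.148) at 2 weeks, and -0.42 (adjusted p = 0.00159) and -0.30 (adjusted p = 0.038) at 6 weeks. The last of these calls was lost without hHGF-NSG naive replicate 1 or 3 or without any one of the 3 6-week replicates (adjusted p = 0.0693 to 0.153). LIG1 scaled by total reads passed the test nowhere against naive, with 0.15 and 0.03 at 2 weeks (adjusted p = 0.246 and 0.835) and -0.21 and -0.14 at 6 weeks (0.120 and 0.394) in NSG and hHGF-NSG.

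Deoxynucleotide supply showed the deepest drops of the 8 roles, with a median log2 change of -2.64 and -3.17 in NSG and -2.73 and -2.84 in hHGF-NSG. RRM2 (chr2:10120698-10131419, hg38), the S-phase subunit of ribonucleotide reductase, makes DNA precursors together with RRM1. It went from 51.8, 56.4, 48.2 and 51.3 FPKM in NSG naive samples to 2.89, 1.68, 2.05 and 2.06 at 2 weeks and 0.874, 1.45, 1.19 and 2.07 at 6 weeks, and in hHGF-NSG from 63.3, 54.5 and 39.6 FPKM to 2.19, 1.42, 1.51 and 2.17 at 2 weeks and 0.782, 1.39 and 2.09 at 6 weeks. No treated sample came near a naive one, and 4.18% and 2.69% of the naive mean remained in NSG (3.47% and 2.71% in hHGF-NSG), the lowest share of all 45 genes in each treated group. The log2 change was -4.07 (SE 0.17, adjusted p = 7.87e-14) at 2 weeks in NSG and -4.23 (SE 0.19, adjusted p = 1.6e-13) in hHGF-NSG. RRM1 fell less, to 27.8% and 25.7% of its naive mean at 2 weeks. Per length, RRM2 was 1.45 ± 0.06 (SD, n = 4) times RRM1 in NSG naive tumours and 0.219 ± 0.051 (n = 4) times at 2 weeks. RRM2B, the p53-inducible subunit that can replace RRM2 outside S phase, had a mean of 7.63, 5.98 and 9.66 FPKM in the 3 NSG groups, so that RRM2 per RRM2B went from 6.87 ± 0.62 to 0.369 ± 0.115 and 0.144 ± 0.049 (SD, n = 4 each; both ratios were chosen after their values were seen).

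TK1, the thymidine salvage kinase of S phase (chr17:78174075-78187233, hg38; named after its values were seen), fell almost as deeply. Its values were 133, 124, 178 and 169.6 FPKM in NSG naive samples, 13.6, 10.9, 13.0 and 10.7 at 2 weeks and 5.70, 5.19, 6.21 and 6.92 at 6 weeks. In hHGF-NSG TK1 was 131, 106 and 135 FPKM when naive, 8.36, 8.67, 8.37 and 11.8 at 2 weeks and 6.86, 8.92 and 10.3 at 6 weeks. The highest treated sample was far under the lowest naive one in each host, with a 2-week change of -3.53 (adjusted p = 2.49e-14) in NSG and -3.61 (adjusted p = 6.88e-14) in hHGF-NSG. TYMS, which makes thymidylate afresh, changed least of this role. It was 14.7, 16.9, 15.5 and 15.3 FPKM in NSG naive samples, 5.81, 4.53, 6.46 and 4.56 at 2 weeks and 3.39, 3.16, 3.31 and 3.70 at 6 weeks. In hHGF-NSG TYMS was 13.3, 15.0 and 13.5 FPKM when naive, 4.43, 4.499, 6.03 and 4.26 at 2 weeks and 3.04, 3.59 and 5.45 at 6 weeks. The TYMS groups of treated and naive samples were separate, with a 2-week change of -1.40 (adjusted p = 9.38e-09) in NSG and -1.37 (adjusted p = 3.98e-08) in hHGF-NSG. TYMS shares 3255 bases with ENOSF1 on the other strand, a gene at a mean of 6.06 FPKM in NSG naive and 9.50 at 2 weeks, and reads from the pair cannot be told apart without strand.

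Behind the fork, methylation and chromatin assembly genes split. UHRF1 (chr19:4903080-4962154, hg38), which brings the maintenance methyltransferase DNMT1 to newly copied DNA, was 29.3, 23.2, 32.3 and 33.6 FPKM in NSG naive samples, 2.56, 2.22, 2.95 and 2.76 at 2 weeks and 1.03, 0.960, 0.654 and 1.16 at 6 weeks. In hHGF-NSG it was 24.7, 27.3 and 28.1 when naive, 1.69, 2.41, 1.47 and 2.81 at 2 weeks and 0.889, 1.40 and 1.56 at 6 weeks. Treated samples stood far below the lowest naive sample in both hosts, and in NSG the 6-week samples lay below all 2-week ones. The log2 change of UHRF1 was -3.07 (SE 0.14, adjusted p = 1.72e-13) and -3.96 in NSG at 2 and 6 weeks, and -3.18 and -3.61 in hHGF-NSG. DNMT1 itself fell less, to 61.1% and 42.8% of its naive mean in NSG and 59.9% and 45.8% in hHGF-NSG.

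CHAF1A and CHAF1B are 2 subunits of CAF-1, which places histones on new DNA, and they moved apart. CHAF1A kept 48.1% and 43.7% of its naive mean at 2 weeks. CHAF1B (chr21:36385378-36419015, hg38) rose from 7.84, 7.23, 9.23 and 8.12 FPKM in NSG naive samples to 10.8, 11.2, 10.3 and 11.2 at 2 weeks and was 7.89, 6.80, 10.3 and 8.62 at 6 weeks. Its hHGF-NSG values were 7.50, 7.59 and 6.69 FPKM when naive, 8.63, 10.4, 9.16 and 9.42 at 2 weeks and 8.39, 8.09 and 7.18 at 6 weeks. All 2-week samples were above all naive samples in both hosts, and the 6-week samples overlapped the naive ones. The rise was 0.39 (SE 0.10, adjusted p = 0.00186) in NSG and 0.33 (SE 0.10, adjusted p = 0.0106) in hHGF-NSG, and the latter lost its call without naive replicate 3 (0.28, adjusted p = 0.0538). At 6 weeks the change was 0.04 and 0.11, with no call. These 6-week values became called higher with scaling by total reads (0.24 and 0.26, adjusted p = 0.0255 and 0.0386). CHAF1B shares 771 bases with MORC3 on the same strand.

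**Figure D4:**
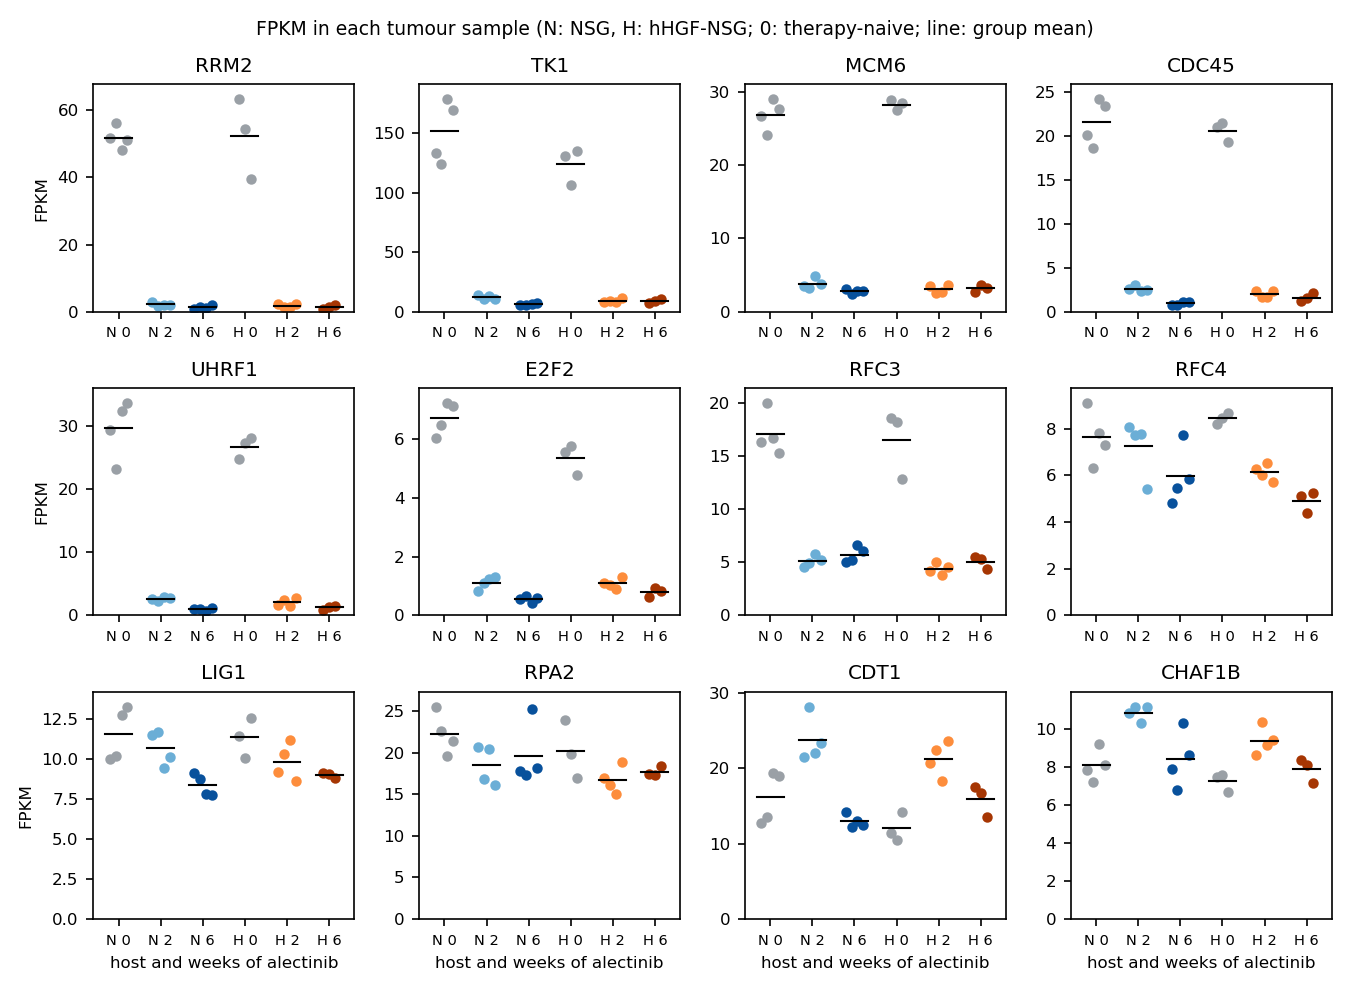
FPKM of 12 genes in each tumour sample, each panel with its own axis from 0; points are samples, lines group means, N is NSG, H is hHGF-NSG and 0, 2 and 6 are weeks of alectinib. The panels run from genes that nearly vanish with treatment (RRM2, TK1) through genes whose groups overlap (RFC4 in NSG, RPA2) to CDT1 and CHAF1B, which peak at 2 weeks.

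The G1/S regulators fell in all 5 cases and all 4 comparisons, each by at least 2-fold in the deposited values (CCNE1 by 0.996 on the log2 scale at 2 weeks in NSG with scaling by total reads). E2F2, an activating E2F, was 6.04, 6.47, 7.22 and 7.11 FPKM in NSG naive samples, 0.839, 1.09, 1.24 and 1.30 at 2 weeks and 0.573, 0.665, 0.435 and 0.577 at 6 weeks. In hHGF-NSG E2F2 was 5.56, 5.75 and 4.77 FPKM when naive, 1.09, 1.05, 0.910 and 1.30 at 2 weeks and 0.638, 0.929 and 0.817 at 6 weeks. CCNE1, which encodes cyclin E1, the partner of the kinase CDK2 at S-phase entry, was 3.12, 3.33, 3.56 and 2.39 FPKM in NSG naive samples, 1.00, 0.970, 0.555 and 0.773 at 2 weeks and 0.513, 0.817, 0.330 and 1.03 at 6 weeks. In hHGF-NSG CCNE1 was 2.63, 3.98 and 2.64 FPKM when naive, 0.904, 0.602, 1.12 and 0.617 at 2 weeks and 0.776, 0.680 and 0.785 at 6 weeks. For both genes no treated sample reached the naive range, and for E2F2 in NSG the 6-week samples were also below all 2-week ones. The 2-week change was -1.87 (adjusted p = 9.53e-13) and -1.61 (adjusted p = 3.78e-11) for E2F2 and -1.17 (adjusted p = 9.25e-07) and -1.17 (adjusted p = 2.67e-06) for CCNE1. E2F1, the best known activating E2F, kept 30.1% and 30.8% of its naive mean, cyclin E2 (CCNE2) 14.7% and 13.8%, and CDC25A, the phosphatase that activates CDK2, 13.2% and 15.6%.

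Set beside the promoters, the genes with CCAAT had a median 2-week change of -1.63 in NSG and -1.59 in hHGF-NSG (22 genes), and those without it -0.78 and -0.73 (17 genes). With E2F letters the medians were -1.44 and -1.45 (16 genes), and without them -1.19 and -1.26 (23 genes). CDT1, CHAF1B and LIG1, the matched genes that rose or passed no test at 2 weeks in both hosts, have no CCAAT in these 250 bases. Other genes without CCAAT fell, among them FEN1, E2F2, RFC3, TYMS and CCNE1. The 2-week changes of genes without it ran from -1.92 to 0.54 in NSG and from -2.08 to 0.78 in hHGF-NSG. These are descriptions of one list, with no test.

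Between 2 and 6 weeks part of the genes stepped down in NSG mice. Of the 45, 17 were lower at 6 than at 2 weeks and 0 were higher, against 11.9% and 8.43% of all genes (20.4% either way). For 18 the samples did not overlap, all lower, as was so for 12.6% of all genes, with 9.83% not overlapping and higher. The largest steps were in TK1 (-0.90, adjusted p = 0.000114), UHRF1 (-0.90, 0.000101), CDC45 (-0.88, 1.54e-05) and CDT1 (-0.82, 0.000155). All 4 of the chromatin and methylation genes and both lagging strand genes were among the 17, as were 5 of 10 licensing genes, but 0 of 7 polymerase and primase genes. Of the 17, CDT1 and CHAF1B had been called higher than naive at 2 weeks, and LIG1 had no call there. Their steps therefore did not add to an earlier called drop. The count lay between 12 and 18 when any 1 sample was left out, and the genes with small steps (MCM4, MCM6, ORC6, FEN1, LIG1 and E2F1 by 0.28 to 0.37) lost their call in several of these fits. With scaling by total reads 19 genes were lower.

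In hHGF-NSG mice 0 of the 45 passed the test for 6 against 2 weeks, where 9.08% of all genes did (6.45% lower, 2.63% higher). Whether this step differs between the hosts was not tested, and hHGF-NSG had 3 samples at 6 weeks where NSG had 4. Of the 45, 8 had an unadjusted p under 0.05, all with a lower value, where 3212 of all 16029 genes had one in either direction. The nearest were DNMT1 (-0.35, adjusted p = 0.0781), UHRF1 (-0.43, 0.0841) and CDT1 (-0.40, 0.097). Without 2-week replicate 3 the UHRF1 step passed (-0.53, adjusted p = 0.0325), and without 6-week replicate 3 that of TYMS did (-0.42, adjusted p = 0.0480). With scaling by total reads CDT1 (-0.46, adjusted p = 0.0414) and DNMT1 (-0.41, adjusted p = 0.0448) passed. Samples did not overlap for 7 genes, 6 lower and 1 higher, where 13.1% and 9.61% of all genes were so separated.

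**Figure D5:**
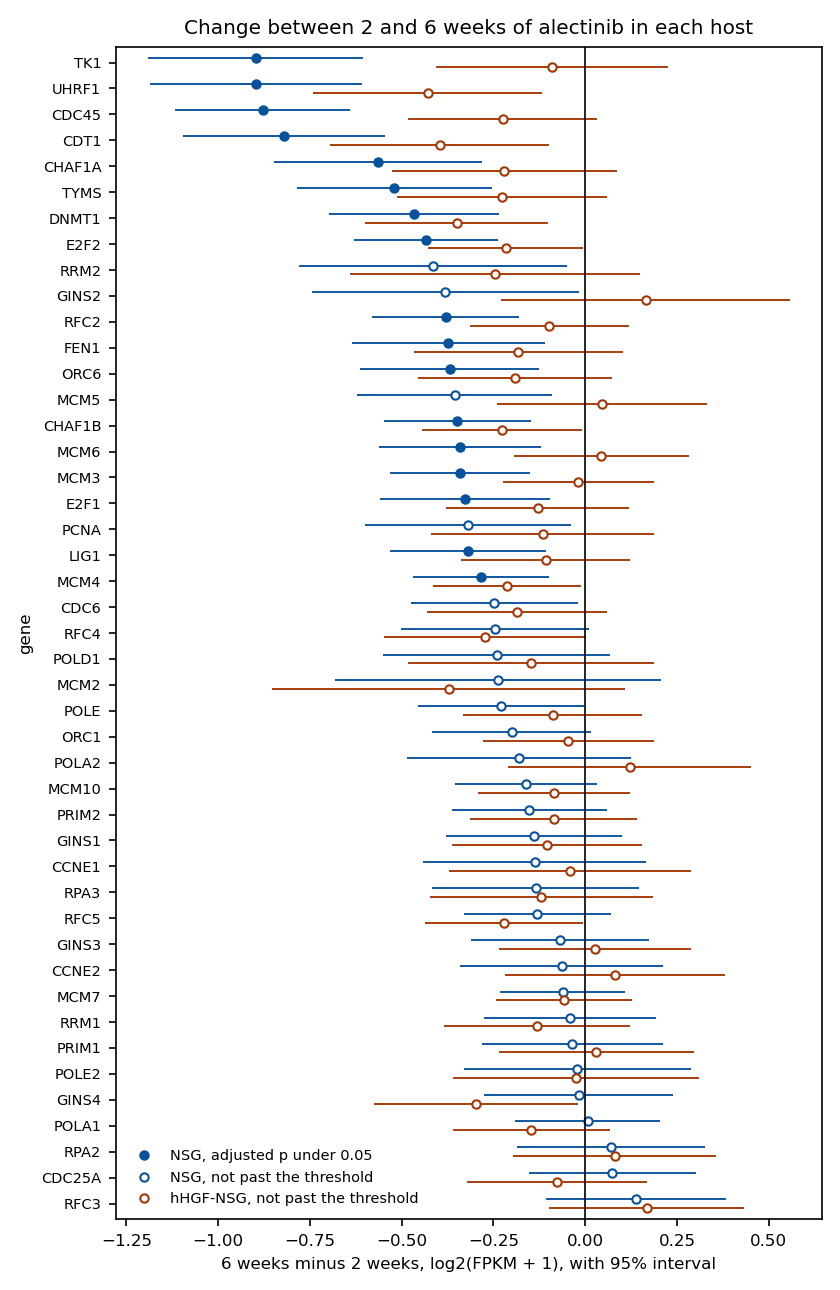
Difference between 6 and 2 weeks on the log2(FPKM + 1) scale for each of the 45 genes in NSG (blue) and hHGF-NSG (brown), with 95% intervals; filled points have an adjusted p under 0.05. The 17 filled points are all NSG and all below 0, and all hHGF-NSG points are open. Whether this step differs between the hosts was not tested.

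No difference between the hosts passed the test for any of the 45. Of the 45 genes, 0 differed between hHGF-NSG and NSG in naive, 2-week or 6-week tumours (limma), against 0.0187%, 0% and 0% of all genes. An unadjusted p under 0.05 was reached by 3, 6 and 4 of the 45, and by 1427, 681 and 1946 of all 16029 genes. The response to treatment differed between hosts for 0 genes at either time (0% of all genes), and limma voom on whole reads also called 0. For the response, 0 and 5 of the 45 had an unadjusted p under 0.05, where 859 and 2142 of all 16029 genes did. The 5 at 6 weeks were TK1 (0.73, interval 0.29 to 1.18, adjusted p = 0.211), CDT1 (0.66, 0.24 to 1.08, 0.226), E2F2 (0.48, 0.18 to 0.78, 0.221), CDC45 (0.46, 0.09 to 0.82, 0.274) and RFC2 (0.33, 0.03 to 0.64, 0.334). All 5 values are positive, that is, the drop was smaller or the rise larger in hHGF-NSG, but the intervals are wide and a p that misses the threshold does not show that the hosts act alike. With the NSG naive library that goes against its label left out, 0 of the 45 were called in naive tumours or for the response at either time. An unadjusted p under 0.05 was then reached by 3, 1 and 7 of the 45, and by 1876, 1130 and 2473 of the 15949 genes tested. Over all these genes, the host comparison of naive tumours called 40, where 3 were called with that library. The difference in 6-week response called 62, where 0 were called with it.

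Other genes of these pathways, from lists chosen by function, moved mostly the same way. Among 29 other replication factors tested of 30 listed, 20 and 24 were lower at 2 and 6 weeks in NSG and 23 and 23 in hHGF-NSG, and 1 was higher once (ORC4, 0.24 at 6 weeks in NSG). With scaling by total reads ORC4 was also called higher at 2 weeks (0.32 in NSG and 0.26 in hHGF-NSG), and the counts lower were 18, 20, 17 and 22. DSCC1, part of a clamp loader for cohesion, the checkpoint mediator CLSPN and the licensing inhibitor GMNN had the largest drops, at -2.54, -2.07 and -1.72 at 2 weeks in NSG. Of 19 other nucleotide synthesis genes tested of 20 listed, 16 and 15 were lower in NSG and 15 and 16 in hHGF-NSG, led by the purine enzyme PAICS (-1.85 at 2 weeks in NSG), CTP synthase CTPS1 (-1.57) and the folate enzyme MTHFD1 (-1.41). SAMHD1, which breaks deoxynucleotides down, rose in all 4 comparisons, from a mean of 0.701 FPKM in NSG naive tumours to 1.77 at 2 weeks and 1.21 at 6 weeks (log2 change 0.71 and 0.38), and from 0.566 to 1.97 and 1.32 in hHGF-NSG. RRM2B was higher once, at 6 weeks in NSG (0.31, adjusted p = 0.0105).

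Of the 16 other E2F and G1/S regulators, 12 and 12 were lower and 3 and 2 higher in NSG, and 11 and 11 lower and 4 and 2 higher in hHGF-NSG. MYBL2, CCNA2 (cyclin A2) and CDCA4 fell most, by 3.69, 2.81 and 1.59 at 2 weeks in NSG. E2F7, an E2F that represses its targets, rose at 2 weeks from a mean of 3.66 to 8.98 FPKM in NSG and from 3.19 to 9.14 in hHGF-NSG (log2 change 1.09 and 1.28). By 6 weeks E2F7 was back at 2.92 and 2.47 FPKM, a step of -1.35 and -1.55 from 2 weeks that passed the test in each host. CABLES1 and TFDP2, the latter a partner of E2F proteins, were higher in all 4 comparisons, CABLES1 by 1.28 at 2 weeks in NSG and 1.30 in hHGF-NSG and TFDP2 by 0.68 and 0.90. E2F5 was higher once, at 2 weeks in hHGF-NSG (0.24, adjusted p = 0.0193), and with scaling by total reads also in NSG (0.25, adjusted p = 0.00982).

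Mitosis genes, listed for comparison, fell in all 20 cases and all 4 comparisons, with medians of -1.83 and -2.38 in NSG and -1.91 and -2.33 in hHGF-NSG. MKI67, AURKB and UBE2C led at 2 weeks in NSG with -3.36, -2.84 and -2.73. At 6 weeks, 16 mitosis genes were lower than at 2 weeks in NSG and 14 in hHGF-NSG, beside 17 and 0 of the 45 replication and G1/S genes. These counts were not tested against each other. DNA polymerases that do not run the fork, 11 tested of 12 listed, were mixed. At 2 weeks 4 were lower and 4 higher in NSG, where 28% and 28.1% of all genes were. In hHGF-NSG 4 were lower and 2 higher, where 26.6% and 27.5% of all genes were. In both hosts POLQ, which joins broken ends, fell (-1.16 and -1.29), as did the translesion polymerases REV1 (-0.46 and -0.55) and POLH (-0.49 and -0.40), whereas REV3L (0.88 and 0.97) and POLL (0.22 and 0.22) rose. With scaling by total reads REV1 (-0.24 and -0.35) and POLH (-0.26 and -0.20) lost their calls at 2 weeks, and POLL lost its own at 2 weeks in NSG without naive replicate 1 (0.16, adjusted p = 0.122).

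Mouse counterparts of the same genes, read in the mouse table for the same tumours, fell at 6 weeks in part and little at 2 weeks. Of 41 tested (Fen1, Mcm10, Orc1 and Pole were too low), 3 were lower at 2 weeks and 16 at 6 weeks in NSG, against 4.48% and 8.59% of all mouse genes lower, and 2 and 10 in hHGF-NSG, against 3.56% and 8.12%; 0 were higher in any comparison, where 3.32%, 8.81%, 3.49% and 9.67% of all mouse genes were. Either way, 7.8% and 17.4% of all mouse genes were called in NSG and 7.06% and 17.8% in hHGF-NSG. Without the NSG naive library labelled replicate 1 the NSG counts were 2 and 13 of 40. Uhrf1 was between 6.36 and 9.80 FPKM in the 3 NSG naive samples, between 1.80 and 5.35 at 2 weeks and between 0 and 0.608 at 6 weeks (log2 change -1.23 and -2.75, adjusted p = 0.00516 and 3.49e-06). Rrm2 ranged from 10.7 to 14.1 FPKM in NSG naive tumours, from 2.65 to 11.6 after 2 weeks and from 0.237 to 2.18 after 6 weeks. In hHGF-NSG it ranged from 9.17 to 10.3 FPKM when naive, from 1.45 to 5.52 after 2 weeks and from 0.908 to 1.496 after 6 weeks. The groups of Rrm2 in NSG overlapped at 2 weeks and were separate at 6 weeks. Over the 45 genes, mouse reads were 2.44% of mouse and human reads together in NSG naive samples, 7.91% at 2 weeks and 9.24% at 6 weeks (2.504%, 6.15% and 13.2% in hHGF-NSG). Host cell markers shifted as well in the mouse table. The 2 fat cell markers ranged in sum from 32.01 to 168 FPKM when naive, 103 to 207 after 2 weeks and 605 to 743 after 6 weeks in NSG (59.5 to 212, 157 to 699 and 661 to 1345 in hHGF-NSG). The 4 endothelial markers summed to 151 to 192 FPKM, then 74.6 to 107 and 63.7 to 82.9 (147 to 154, 91.2 to 126 and 91.5 to 105 in hHGF-NSG). The 3 leukocyte markers found of 4 summed to 393 to 411, 266 to 350 and 279 to 287 FPKM in NSG (247 to 502, 239 to 429 and 237 to 380 in hHGF-NSG), and the 6 fibroblast markers to 4577 to 10274, 8427 to 14088 and 4547 to 6738 (5800 to 8001, 4208 to 11524 and 3974 to 4784). Their part in the result was not tested. The 8 tumour epithelial markers in mouse spelling summed to 88.5 to 310, 147 to 272 and 114 to 187 FPKM in the 3 NSG groups of the mouse table. In hHGF-NSG they summed to 87.5 to 169, 182 to 401 and 89.0 to 162. At 2 weeks Nkx2-1 was the only 1 of these 8 with a mean of 1 FPKM or more in either host. How reads were assigned to a species is not stated in the labels, and the part of reads assigned to the other species was not tested.

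Across the 22 samples the genes moved with each other, except for those already named as exceptions. Pearson's correlation of a gene's log2(FPKM + 1) with the mean of the other 44 was lowest for CHAF1B (-0.40), CDT1 (-0.33), RPA2 (0.53), LIG1 (0.64) and RFC4 (0.67), and highest for TK1 and MCM4, both 0.99 or more. The protein-coding genes outside the list most like the mean of the 45, among 11967 ranked, were LMNB1, MUC2, FBN2, GAPDH and ZWINT, each with a correlation of 0.996 or 0.997. The samples share their treatment groups, so the step from naive to treated enters any such correlation. How much of each value that step makes up was not computed, and the values only describe how alike the patterns are.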

How the data were processed

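Bulk RNA-seq of xenograft tumours was deposited by the authors as gene tables in FPKM against the human (hg38) and mouse (mm10) genomes; the submitters' processing notes name DESeq2 with no role stated, and neither aligner nor counter is given in the sources used here. FPKM values came out as whole reads (tolerance 0.05 read), which gave the depths. Each table was fitted once on log2(FPKM + 1) with limma 3.58.1 (R 4.3.3): 1 mean per group, variance trend, genes at 1 FPKM or more in at least 3 samples, Benjamini-Hochberg adjustment over all 16029 human or 14287 mouse genes, threshold 0.05. The fit was tested on simulated data. Intervals are 95% and unadjusted. The mouse table was read for 20 samples. Members and lists were chosen with earlier results of these data known. Named sample by sample were, in each role, the members with the largest and smallest 2-week change (the smaller of the 2 hosts) and any member called higher. TK1 and RPA2 were added after their values were seen. From each other list up to 3 genes per direction by the same measure were named, and any that rose. Promoters came from RefSeq (GRCh38.p14). Alternatives were another pseudocount, no filter, median-ratio scaling, scaling by total reads (chosen after seeing the data), the replicate number as a block, limma voom on reads, and each sample left out.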

Additional observations from a re-analysis of the deposited data

Results flagged for a closer look

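Of 180 sets of 4 samples (45 genes in 4 groups; the groups of 3 could not be screened), 6 had a sample whose gap to its nearest neighbour exceeded Dixon's 95% limit as a share of the range, where chance gives about 1 in 20. PCNA stood at 49.9 FPKM in NSG 6-week replicate 3, where the next sample had 32.7, and RPA2 in the same sample at 25.2 against 18.2. In NSG 2-week replicate 4, ORC1 was 1.37 FPKM against 0.971 in the next sample, and RFC4 was 5.39 against 7.72. In hHGF-NSG tumours at 2 weeks, TYMS was 6.03 FPKM in replicate 3 against 4.499, and TK1 was 11.8 in replicate 4 against 8.67.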

How the results depend on the processing

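Counts of the 45 genes called against naive were 40 to 43 of 45 in both hosts and at both times under every alternative run, and scaling by total reads, chosen after seeing the data, gave 41, 40, 41 and 43. For 6 against 2 weeks in NSG the count was 12 without the filter, 14 with the replicate number as a block and 16 with limma voom, beside 17. With each sample left out in turn the counts were 41 to 42 and 41 to 43 in NSG at 2 and 6 weeks, 43 and 41 to 42 in hHGF-NSG, 12 to 18 for 6 against 2 weeks in NSG and 0 to 1 in hHGF-NSG. The replicate block gave 42, 42, 43 and 41 genes against naive, where CDT1 and LIG1 at 6 weeks in hHGF-NSG lost their call (limma adjusted p = 0.0588 and 0.0564). The numbers did not pair the samples: same-numbered human samples correlated at -0.33 to 0.26 (median -0.02) over 51 pairs, and 2 of 22 samples correlated best with their own number. Without the filter, CDT1, LIG1 (both at 6 weeks in hHGF-NSG), RFC4 (6 weeks in NSG) and RPA3 (2 weeks in NSG) lost their calls (adjusted p = 0.0860, 0.0663, 0.0661 and 0.0649). With a pseudocount of 0.1 the mean change of the 45 genes was -1.66 and -2.04 in NSG, beside -1.36 and -1.63, and -1.75 and -1.92 in hHGF-NSG, beside -1.41 and -1.54, since a smaller pseudocount compresses low values less. With scaling by total reads it was -1.13, -1.44, -1.21 and -1.38, and 2 genes were called for 6 against 2 weeks in hHGF-NSG, beside 0. For the mouse counterparts the 2-week counts became 1 in NSG with pseudocount 0.1, and 0 in hHGF-NSG with pseudocount 0.1 and 0 without the filter. Leaving out samples gave 2 to 4, 13 to 18, 0 to 2 and 7 to 9 mouse genes in the 4 comparisons. No called value changed sign. Median-ratio rescaling moved the median of all genes by at most 0.02. In low genes such as MCM10, depth limits the precision.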
